A study of Mus musculus with 16 samples.

Results

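The genes described here encode 10 enzymes of glycogen breakdown and glycolysis, Pygm, Hk2, Pfkm, Aldoa, Gapdh, Pgk1, Pgam2, Eno3, Pkm and Ldha. They were taken by gene symbol, and 10 of 10 were present among the 21011 genes of the muscle table and among the 38933 genes of the bone table. BAY2416964 (BAY) is an oral inhibitor of the aryl hydrocarbon receptor (AhR), a transcription factor switched on by small-molecule ligands. Tibialis anterior (TA) muscle and cortical bone were profiled by bulk RNA-seq in female C57BL/6 mice, which received either 30 mg/kg BAY or vehicle (VEH, ethanol, Solutol and water) by mouth on 5 days per week. Dosing began at 18 months of age, and tissues were taken after 8 weeks of it. Each of the 4 groups (muscle VEH, muscle BAY, bone VEH and bone BAY) held 4 libraries, so the comparison in each tissue was 4 against 4. The bone was collagenase-digested shaft left after bone marrow stromal cells had been taken from the same bones. No genotype other than the strain was named, and whether the muscle and bone libraries came from the same mice was not stated.

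In glycogen breakdown, glycogen phosphorylase releases glucose units from the polymer as phosphorylated sugar, which enters glycolysis past the hexokinase step. Glycolysis then converts hexose to pyruvate, and lactate dehydrogenase can turn pyruvate into lactate. Fast-twitch fibres, which make up most of the TA, rely on this route for rapid contraction and use muscle forms of several of its enzymes. Pygm is the muscle glycogen phosphorylase, and Hk2 is the insulin-responsive hexokinase of muscle. Pfkm is the muscle subunit of phosphofructokinase, the main control point of glycolysis, and Aldoa is the aldolase of muscle and many other tissues. Gapdh and Pgk1 are the dehydrogenase and the kinase of the coupled steps that yield the first ATP. Pgam2 and Eno3 are the muscle phosphoglycerate mutase and enolase, Pkm is the pyruvate kinase of muscle and many other tissues, and Ldha is the lactate dehydrogenase subunit common in fast muscle.

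Values are CPM, the counts of a gene scaled to a common library total, obtained by undoing the log2 scale and offset of the deposited tables, and fold changes are on the log2 scale of CPM plus that offset. Reads recovered from the value of 1 counted read came to between 6131919 and 9262358 per muscle library and between 930307 and 6951919 per bone library. The floor of 3 reads lay between 0.324 and 0.489 CPM in muscle and between 0.432 and 3.22 CPM in bone, and it covers counting error only. Labels were checked against marker genes. The 12 fast-fibre markers (among them Acta1 and Ckm) summed to between 121105 and 201522 CPM in the muscle libraries. In bone, the 11 osteoblast and osteocyte markers summed to between 1525 and 30270 CPM, and the fast-fibre markers to between 39.3 and 42085 CPM. Muscle VEH replicate 3, whose column name marks it as a replacement, stood apart in its sums over the adipocyte, osteoblast and osteoclast marker lists. The 6 adipocyte markers other than Car3, which muscle fibres also express, summed to 322.3 CPM there and to between 38.5 and 56.1 CPM in the other 7 muscle libraries. The osteoblast and osteocyte markers summed to 159.5 CPM there against between 33.3 and 55.9 CPM, and the osteoclast markers to 7.13 CPM against at most 1.42 CPM. Only 6 of the 11 osteoblast and osteocyte markers (not Bglap, Ibsp, Sp7, Sost or Mepe) were in the muscle table, and 4 of the 5 osteoclast markers. Which cells these reads came from was not tested. Several bone libraries carried reads over genes that bone does not use. Summed over 1355 olfactory receptor genes, this signal was 0.132 CPM per kb of exon in bone VEH replicate 1 and between 1.4 and 9.06 CPM per kb in the other 7 bone libraries. Bone BAY replicate 4 was the shallowest library and had the highest such signal.

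Pgk1, Gapdh and Pkm share sequence with processed pseudogenes, which are intronless copies elsewhere in the genome, and the counting method of the study divides reads that fit several genes among them. Pgk1 lies at chrX:105230706-105247306 (mm39, plus strand), and its 1251 coding bases occur without a difference in Gm5537 at chr3:58010417-58011668 (minus strand). The 1250 coding bases aligned to Pgk1-rs7, at chr12:10948986-10950240 (minus strand), were also identical. A stretch of 60 coding bases, from base 301 to base 360 counted from the start codon, is shown because a read inside it cannot be told apart among the 3 genes. It is all in lower case because no base differs.
Pgk1: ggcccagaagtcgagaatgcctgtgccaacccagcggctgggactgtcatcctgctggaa
Gm5537: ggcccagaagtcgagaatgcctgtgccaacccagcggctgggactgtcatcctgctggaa
Pgk1-rs7: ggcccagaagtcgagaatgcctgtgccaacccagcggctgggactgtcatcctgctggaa
Gapdh has 36 such copies, of which 34 were in the muscle table and 35 in the bone table, and the 999 coding bases of Gm7336 at chr7:51396395-51397626 were identical to its own. Pkm has a single copy, Gm6560 at chr5:22929576-22931166, which was 98.5% identical over 1591 coding bases. Capitals in the pair of stretches from base 366 to base 425 mark the bases that differ.
Pkm: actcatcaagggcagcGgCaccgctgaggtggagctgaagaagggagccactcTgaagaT
Gm6560: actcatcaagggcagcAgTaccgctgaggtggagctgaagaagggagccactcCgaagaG
The other 7 members had no annotated pseudogene matching over at least 500 bases at 98% identity or more. The muscle forms are also distinct from their paralogs, the related genes expressed in other tissues. Pgam2 and Pgam1 were 75.7% identical over 757 aligned coding bases, with no identical run longer than 28 bases, and coding bases 301 to 360 of Pgam2 are shown beside the aligned bases of Pgam1, with the differing bases in capitals.
Pgam2: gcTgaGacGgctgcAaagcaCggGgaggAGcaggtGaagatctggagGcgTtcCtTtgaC
Pgam1: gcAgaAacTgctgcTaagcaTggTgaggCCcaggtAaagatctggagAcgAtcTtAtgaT
Identity of the other muscle forms with a paralog ranged from 71.1% for Pfkm and Pfkl to 77% for Eno3 and Eno1, with no identical run longer than 29 bases in any of these pairs.

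In TA muscle the 10 genes were highly expressed, and 0 of them had an adjusted P under 0.05 between BAY- and VEH-treated mice. Pgk1, which was lower in BAY in all 4 libraries, was the only member with an unadjusted P under 0.05 by limma. That is 1 of 10, beside 9.79% of all muscle genes. Together the 10 genes made up 1.66% ± 0.11 of all counts in VEH and 1.85% ± 0.19 in BAY (SD, n = 4 each). Fold changes of the other 9 genes lay between 0.925 for Ldha and 1.2 for Pkm, and 8 of the 10 were above 1 (all but Pgk1 and Ldha; Pygm and Eno3 fell just below 1 with mitochondrial genes left out), as were those of 55.2% of all muscle genes.

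**Figure D1:**
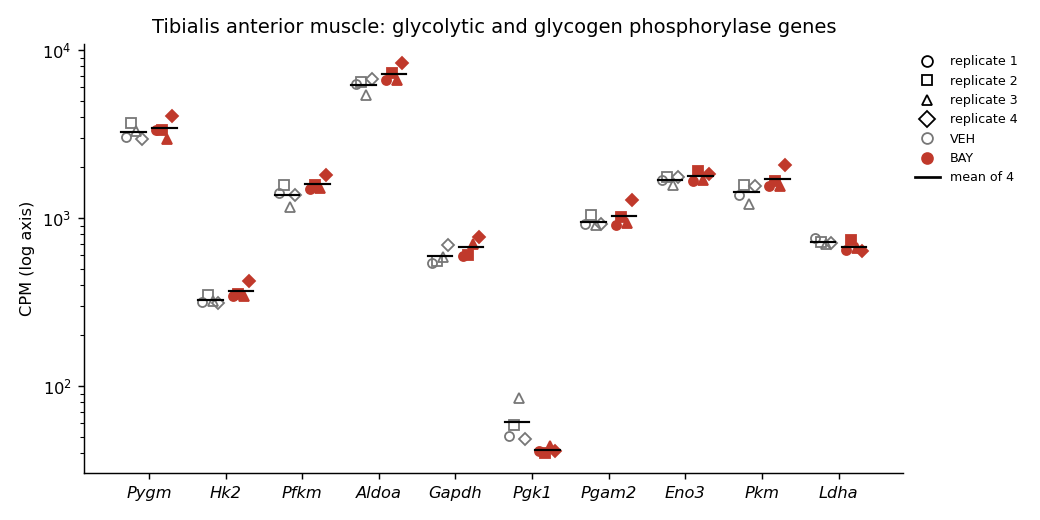
CPM (log axis) of the 10 genes in the 8 TA muscle libraries, with open grey symbols for VEH, filled red symbols for BAY, a symbol shape for each replicate number and a bar at the mean of 4 libraries. The groups overlapped for every gene except Pgk1, whose BAY libraries sat between 39.7 and 43.8 CPM and VEH libraries between 48.6 and 85 CPM.

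Levels were compared between genes per kb of all annotated exons, in which the VEH means fell in the order Aldoa, Pgam2, Pygm, Eno3, Pfkm, Ldha, Pkm, Gapdh, Hk2 and Pgk1. These lengths join the exons of every annotated transcript, 13.4 kb for Pkm, 7.16 kb for Gapdh and 0.989 kb for Pgam2. The canonical transcripts of Pkm and Gapdh have 2448 and 1420 bases. The order was not computed on transcript lengths, so it and the ranks hold for this measure only. Aldoa reached 1159 ± 110 CPM per kb in VEH, rank 29 of 20883 genes by the mean of all 8 libraries. Pgam2 followed at 959 ± 63.2 and Pygm at 843 ± 85.4 CPM per kb, and these neighbours differed by less than the sum of their SDs. Pfkm (154 ± 18.6) and Ldha (152 ± 5.77 CPM per kb) did not differ beyond their spread either. In VEH the remaining neighbours differed by more than the sum of their SDs. Pgk1 was last at 27 ± 7.51 CPM per kb, rank 521, and the rows of Pgk1 and Gapdh held only part of the reads of their coding sequences. In BAY the order was the same, with Aldoa and Pgam2, Pgam2 and Pygm, and Ldha and Pkm within the sum of their SDs.

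Pygm, at the glycogen step, was measured at 3030, 3674, 3291 and 2945 CPM in VEH replicates 1 to 4 and at 3324, 3352, 2951 and 4034 CPM in BAY replicates 1 to 4. The groups overlapped, and only BAY replicate 4 exceeded the highest VEH library. The log2 fold change was 0.07 ± 0.25 (SE, n = 4 each), with a 95% interval from -0.46 to 0.61 and an adjusted P of 0.953 with limma over all 21011 genes. Hk2, which phosphorylates glucose on entry, was at 317, 348.7, 321 and 310.4 CPM in VEH and at 342.6, 354.2, 345.7 and 420.4 CPM in BAY. Most BAY libraries lay above most VEH libraries, but VEH replicate 2 overlapped them. Its log2 fold change was 0.17 ± 0.13, with an adjusted P of 0.679 by limma.

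The genes of the preparatory and aldolase steps also overlapped. Pfkm was at 1401, 1575, 1168 and 1375 CPM in VEH and at 1488, 1567, 1515 and 1809 CPM in BAY, with a log2 fold change of 0.21 ± 0.19 (limma adjusted P = 0.716). Aldoa was at 6303, 6462, 5393 and 6771 CPM in VEH and at 6662, 7272, 6681 and 8322 CPM in BAY, with a log2 fold change of 0.21 ± 0.33 (limma adjusted P = 0.846). For both genes the lowest library was VEH replicate 3 and the highest BAY replicate 4. A second muscle row carried the symbol Aldoa under another identifier, ENSMUSG00000114515, at 4.14 ± 1.42 CPM in VEH and 5.47 ± 1.28 CPM in BAY. It was kept apart from Aldoa, and its log2 fold change was 0.45 ± 0.29 (limma adjusted P = 0.644). In bone the row of Aldoa carried both identifiers, so the values of Aldoa there include this second entry.

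The 2 genes of the steps that yield the first ATP had fold changes of opposite sign. Gapdh was at 539.6, 554.4, 583.4 and 692.8 CPM in VEH and at 593.5, 604.3, 704.8 and 773.5 CPM in BAY, a log2 fold change of 0.17 ± 0.16 (limma adjusted P = 0.722). Its own row held between 35.6% and 46.6% of the summed counts of Gapdh and its copies, which came to 1485 ± 142 CPM in VEH and 1621 ± 106 CPM in BAY and overlapped as well. Pgk1 was at 50.2, 58.8, 85 and 48.6 CPM in VEH and at 40.9, 39.7, 43.8 and 41.1 CPM in BAY. All BAY libraries lay below all VEH libraries, and the BAY libraries were close to each other. The log2 fold change of Pgk1 was -0.52 ± 0.16 (limma unadjusted P = 0.00669), a fold of 0.699 with a 95% interval from 0.55 to 0.89, but the adjusted P over all genes was 0.338. VEH replicate 3, the library with the highest sums over the adipocyte, osteoblast and osteoclast marker lists, was the highest for Pgk1. Without it the log2 fold change was -0.34, still at an unadjusted P under 0.05, and the part of RNA from other cell types in the difference was not tested. In bulk tissue, fewer cells of a type and less RNA per cell cannot be told apart.

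The low level of the Pgk1 row has to be read with its copies. Gm5537 was counted at a mean of 83.9 CPM and Pgk1-rs7 at 71.2 CPM over the 8 muscle libraries, both above the 51 CPM of Pgk1 itself, and the row of Pgk1 held between 18.9% and 33.4% of the sum of the 3. That sum was 214.2, 225.3, 254.4 and 213 CPM in VEH (226.7 ± 19.2) and 170.2, 210.5, 179.3 and 182.3 CPM in BAY (185.6 ± 17.4). The groups did not overlap for the sum either, but the highest BAY library came within 3 CPM of the lowest VEH library. Fitted as a single row, the sum gave a log2 fold change of -0.29 ± 0.12 with a limma unadjusted P of 0.0329 and an adjusted P of 0.473, which is a smaller change than in the row of Pgk1 alone.

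**Figure D2:**
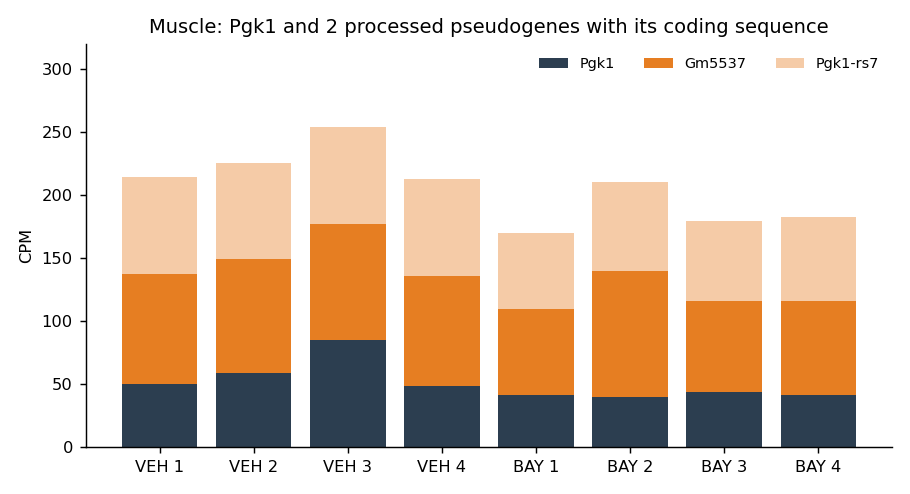
Stacked bars of CPM for Pgk1 (dark), Gm5537 (orange) and Pgk1-rs7 (pale) in each TA muscle library. The summed bars reach between 213 and 254.4 CPM in the VEH libraries and between 170.2 and 210.5 CPM in the BAY libraries, and the 2 copies take most of each bar.

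The later steps again showed no detectable difference. Pgam2 was at 921.9, 1042, 909.6 and 920.4 CPM in VEH and at 908.7, 1015, 932.6 and 1283 CPM in BAY, with a log2 fold change of 0.11 ± 0.17 (limma adjusted P = 0.844). Eno3 was at 1679, 1746, 1563 and 1764 CPM in VEH and at 1657, 1905, 1695 and 1829 CPM in BAY, with a log2 fold change of 0.07 ± 0.19 (limma adjusted P = 0.928). These neighbouring enzymes of the pathway overlapped throughout, and for Pgam2 the highest value came from BAY replicate 4. Pkm was at 1365, 1564, 1210 and 1543 CPM in VEH and at 1562, 1658, 1547 and 2068 CPM in BAY, with a log2 fold change of 0.26 ± 0.20 (limma adjusted P = 0.678). With limma voom on the recovered reads, the unadjusted P of Pkm was 0.0377. Ldha, which makes lactate, was at 759.9, 723.8, 698.3 and 706.6 CPM in VEH and at 643.4, 737.1, 661.7 and 633.3 CPM in BAY. BAY replicates 1, 3 and 4 lay below every VEH library, BAY replicate 2 did not, and the log2 fold change was -0.11 ± 0.14 (limma adjusted P = 0.813).

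Over all genes of the muscle table, 9.79% had an unadjusted P under 0.05 with limma (3.07% lower in BAY; 1410 of 2056 were higher, and 1200 of 2442 with median centring), 2.43% also passed a fold of 2, and 5.73% did not overlap between the groups. Against this, 1 of the 10 members (Pgk1) had an unadjusted P under 0.05 and did not overlap, 0 passed the fold of 2, and 0 had an adjusted P under 0.05. No gene of the muscle table had an adjusted P under 0.05 in this fit, and 25 did with limma voom on the recovered reads, none of them a member. The median log2 fold change was 0.14 over the members and 0.06 over all genes. The 95% intervals of the 9 members other than Pgk1 reached from -0.49 to 0.92, both ends from Aldoa. The SE of Aldoa was 0.33 in this fit, 0.14 by eBayes without a trend and 0.11 with voom, so the width of its interval moved with the fit.

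BAY replicate 4 had the highest value of Pygm, Hk2, Pfkm, Aldoa, Gapdh, Pgam2 and Pkm among the 8 libraries, and the 10 genes made up 2.12% of its counts. It also had the highest sum of fast-fibre markers, at 201522 CPM, and the lowest share of counts from the mitochondrial genome, 13.9% against up to 30.3% in VEH replicate 1. With mitochondrial genes left out of the library total, the 10 genes came to 2.18% ± 0.19 in VEH and 2.29% ± 0.17 in BAY. On that scale the log2 fold changes of Pygm and Eno3 turned to -0.0056 and -0.011, and that of Pgk1 was -0.60. The part of these shares in the differences was not tested.

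The muscle forms dominated their gene families in TA muscle. As a share of the family's CPM per kb, Pygm took at least 99.7% of the glycogen phosphorylases (with Pygl and Pygb), Pfkm at least 99.2% of the phosphofructokinases (with Pfkl and Pfkp), and Eno3 at least 98.8% of the enolases (with Eno1 and Eno2) in every library. Pgam2 took at least 99.5% beside Pgam1, and Hk2 at least 97.3% beside Hk1 and Hk3. Aldoa took nearly all of its family. Ldha had the most company, from Ldhb, the subunit of heart and oxidative tissue. The share of Ldha was 95.9%, 96.3%, 87.4% and 95.3% in VEH and 95.1%, 94.4%, 94.4% and 95.1% in BAY. VEH replicate 3 stood below the other 7 libraries in this share, as it did for Pygm, Pfkm, Pgam2 and Eno3. No share differed between BAY and VEH by the exact permutation test, with two-sided unadjusted P values between 0.371 for Aldoa and 1 for Ldha. In all, 13 shares were compared over the 2 tissues, and 0.0286 is the smallest P that 4 against 4 allows.

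**Figure D3:**
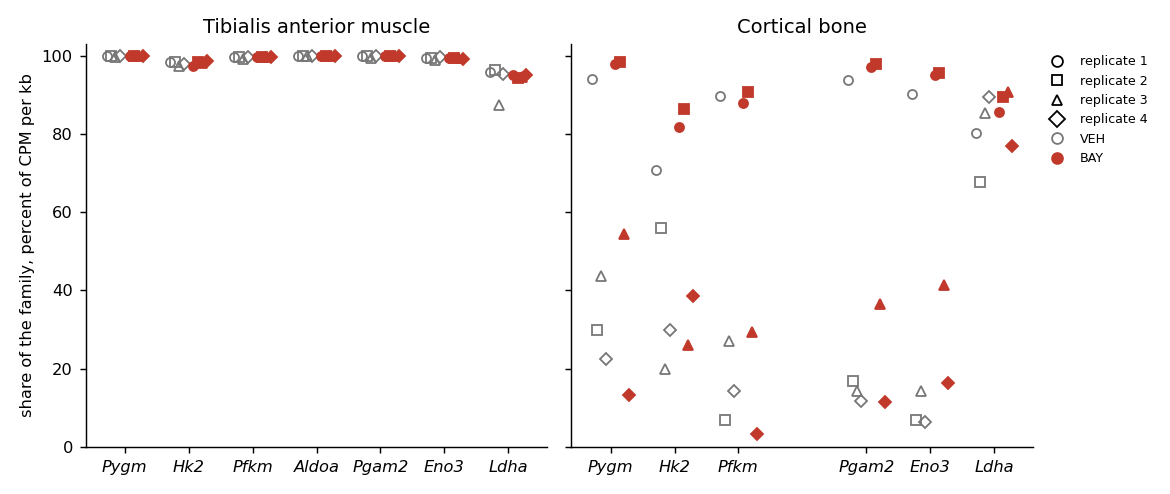
Share of each muscle form in the CPM per kb of its gene family, in percent, for the 4 VEH (open grey) and 4 BAY (filled red) libraries of TA muscle at left and cortical bone at right, with a symbol for each replicate number. In muscle the shares lie at 87.4% or above, whereas in bone those of Pygm, Pfkm, Pgam2 and Eno3 are spread from 6.43% to 94.2% in VEH and from 3.43% to 98.4% in BAY.

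Other genes of the pathway were taken from a list of 52 genes, of which 45 were in the muscle table. In BAY 24 were higher and 21 lower, their median log2 fold change was 0.02, and 1 in each direction had an unadjusted P under 0.05 with limma, beside 9.79% of all muscle genes in either direction. These calls are therefore no result about the list, and both genes are given as values. Ugp2, which makes the UDP-glucose used to build glycogen, was lower, at 115.7, 103.7, 144.6 and 94.2 CPM in VEH and at 78.3, 91.5, 85.3 and 55.5 CPM in BAY. The groups did not overlap, and the log2 fold change was -0.57 ± 0.17 (limma unadjusted P = 0.00531, adjusted P = 0.322). Pfkfb2, which sets the level of the allosteric activator of phosphofructokinase, was higher, at 12.1, 13.8, 10.3 and 13 CPM in VEH and at 16.2, 19.6, 15.5 and 14.6 CPM in BAY. Again the groups did not overlap, with a log2 fold change of 0.42 ± 0.15 (limma unadjusted P = 0.0159, adjusted P = 0.404). By role, 13 other glycolytic enzymes and paralogs were in the table with 6 higher and 7 lower, and 12 genes of glycogen breakdown and its kinase with 7 higher and 5 lower. Of the 9 genes of glycogen synthesis 4 were higher and 5 lower, and of the 11 genes of control, transport and gluconeogenesis 7 were higher and 4 lower.

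The genes whose levels across the 8 muscle libraries were most like the mean log2 level of the 10 members were 2310040G24Rik (Pearson r = 0.97), Dusp27 (0.96) and Gm12138 (0.96), out of 5549 genes averaging 10 CPM or more. The correlation of each member with that mean, of which it is a part, ran from 0.99 for Pgam2 and 0.91 for Hk2 down to -0.35 for Pgk1 and -0.39 for Ldha. All 8 points share each library's depth and mitochondrial share.

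Because the compound acts on a transcription factor, the promoters were searched for its core site. In the 250 bases before the start of the canonical transcript (GRCm39), GCGTG, the core of the xenobiotic response element bound by AhR, occurred on either strand in 4 of the 10 members (Pygm, Pfkm, Gapdh and Ldha) and in 31.2% of 21770 protein-coding promoters. ACGTG, the core of the hypoxia response element, occurred in 7 of 10 members and in 17% of all. CTA and TAG with any 4 bases between them, a form of the MEF2 site of muscle genes, occurred in 0 of 10 and in 3.32%. The promoters of Pgk1, the member with the smallest P in muscle, and of Pygm are shown because the first held 2 matches of ACGTG and none of GCGTG and the second 1 match of each. Capitals mark matches of either core on either strand.
Pgk1 promoter, chrX:105230456-105230705, plus strand: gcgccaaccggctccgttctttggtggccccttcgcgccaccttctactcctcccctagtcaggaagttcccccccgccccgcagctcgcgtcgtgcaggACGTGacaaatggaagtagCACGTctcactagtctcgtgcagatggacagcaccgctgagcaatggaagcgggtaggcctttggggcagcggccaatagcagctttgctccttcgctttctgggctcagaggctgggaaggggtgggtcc
Pygm promoter, chr19:6434179-6434428, plus strand: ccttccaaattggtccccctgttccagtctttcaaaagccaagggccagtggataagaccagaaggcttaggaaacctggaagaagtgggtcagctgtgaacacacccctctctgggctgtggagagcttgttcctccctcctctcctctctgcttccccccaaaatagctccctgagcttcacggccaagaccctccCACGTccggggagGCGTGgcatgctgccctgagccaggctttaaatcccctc
In Pgk1 the matches began 150 and 131 bases before the transcript start, and in Pygm the match of GCGTG began 39 bases and that of ACGTG 52 bases before it.

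In cortical bone the same genes varied widely between mice within each treatment. Eno3, which ranged from 1.84 to 534.3 CPM, was the only member with an unadjusted P under 0.05 by limma and a fold of 2, beside 0.64% of all bone genes, and with limma voom 0 members passed. The groups overlapped for all 10 members, and 0.406% of all genes did not overlap. In order of size, the log2 fold change was above 2 for Eno3, Pgam2 and Pygm, between 1 and 2 for Aldoa and Pfkm, and below 1 for Ldha, Gapdh, Hk2, Pgk1 and Pkm. All 10 were above 0 (Hk2, Pgk1 and Pkm were below 0 with median centring), as were 80.9% of all genes of the bone table, whose median log2 fold change was 0.84. The median over the members was 1.30. Without VEH replicate 1 the median over all genes turned to -0.088, and without both VEH replicate 1 and BAY replicate 4 it was -0.40.

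**Figure D4:**
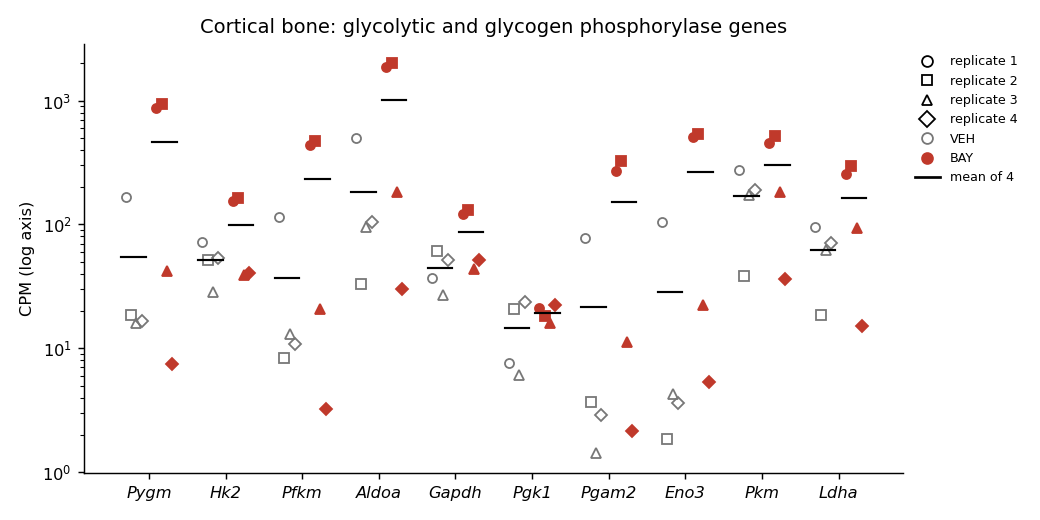
CPM (log axis) of the 10 genes in the 8 cortical bone libraries, drawn as for muscle (open grey, VEH; filled red, BAY; bars, means of 4). BAY replicates 1 and 2 and VEH replicate 1 are the 3 highest libraries for every gene except Gapdh and Pgk1, and the other libraries of both groups lie below them.

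Eno3 was at 103.9, 1.84, 4.25 and 3.64 CPM in bone VEH replicates 1 to 4 and at 506.5, 534.3, 22.4 and 5.37 CPM in BAY replicates 1 to 4. BAY replicates 1 and 2 were high, VEH replicate 1 was between them and the rest, and the lowest values rested on as few as 2 reads. Its log2 fold change was 3.36 ± 1.53 (SE, n = 4 each), with a 95% interval from 0.04 to 6.67, an unadjusted P of 0.0477 and an adjusted P of 0.887 by limma over all 38933 genes. In that fit 0.64% of all genes were called by the rule of P and fold (0.545% higher in BAY), and 0 had an adjusted P under 0.05, as with limma voom. By the same rule of P and fold, limma voom on the recovered reads, the tool that the study's methods name, called 1433 genes with 1431 higher in BAY, beside 249 with 212 higher here. With median centring the count was 443 with 295 higher. The call of Eno3 was lost when BAY replicate 1 (limma unadjusted P = 0.148) or BAY replicate 2 (limma unadjusted P = 0.152) was left out. It was also lost without VEH replicate 2, 3 or 4 and with voom on recovered reads (log2 fold change 2.73, limma voom unadjusted P = 0.0837). The call was kept without VEH replicate 1, BAY replicate 3 or BAY replicate 4. With 1 library left out, the log2 fold change of Eno3 lay between 2.42 and 4.63. Its unadjusted P by limma was under 0.05 in 7 of 17 alternatives.

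Pgam2 had the same 4 libraries at the top as Eno3, at 77.4, 3.68, 1.42 and 2.91 CPM in VEH and at 269.6, 322.6, 11.2 and 2.15 CPM in BAY. Pygm was at 167.1, 18.4, 15.9 and 16.7 CPM in VEH and at 865.9, 939.2, 41.8 and 7.52 CPM in BAY. In both genes BAY replicate 4 was at or near the bottom of all 8 libraries, and the groups overlapped. The log2 fold change was 2.7 ± 1.61 for Pgam2 (limma unadjusted P = 0.118) and 2.07 ± 1.38 for Pygm (unadjusted P = 0.157). Both values moved with single libraries. Without VEH replicate 1 they were 3.94 and 2.89, at limma unadjusted P values of 0.0118 and 0.0376, and without BAY replicate 4 they were 4.08 and 3.43 (limma unadjusted P = 0.0147 and 0.011). Without BAY replicate 1 they were 1.76 and 1.14 (limma unadjusted P = 0.318 and 0.416), and without BAY replicate 2 they were 1.67 and 1.11 (limma unadjusted P = 0.338 and 0.428).

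Aldoa was at 494.1, 33.1, 95 and 104.8 CPM in VEH and at 1871, 1991, 181.3 and 30.1 CPM in BAY. Pfkm was at 114.1, 8.29, 13.1 and 10.9 CPM in VEH and at 436.7, 471.9, 20.9 and 3.22 CPM in BAY. The highest and the lowest library of all 8 belonged to BAY for both. The log2 fold change was 1.74 ± 1.23 for Aldoa and 1.67 ± 1.43 for Pfkm, with limma unadjusted P values of 0.181 and 0.263. With 1 library left out, that of Aldoa lay between 0.94 and 2.96 and that of Pfkm between 0.69 and 3.08. Without BAY replicate 4 both had a limma unadjusted P under 0.05.

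The other 5 members varied less. Ldha ranged from 18.4 to 95.9 CPM in VEH and from 15 to 294 CPM in BAY, and Pkm from 38.7 to 276.2 CPM in VEH and from 36.5 to 521.5 CPM in BAY. Hk2 ranged from 28.3 to 71.6 CPM in VEH and from 39.2 to 163.8 CPM in BAY, and Gapdh from 27.1 to 61 CPM in VEH and from 43.6 to 130.3 CPM in BAY. The row of Pgk1 had the narrowest range, at 7.67, 20.9, 6.1 and 23.8 CPM in VEH and at 21, 18.3, 16.1 and 22.3 CPM in BAY. It held between 18.6% and 48.4% of the sum of Pgk1 and its 2 copies. That sum was 29.2, 43.3, 24.1 and 67.7 CPM in VEH and 84.9, 98.4, 45.8 and 47.3 CPM in BAY, and the groups overlapped. The log2 fold changes of these 5 members lay between 0.54 ± 0.87 for Pkm and 0.94 ± 0.89 for Ldha, with limma unadjusted P values between 0.151 for Gapdh and 0.544 for Pkm. Ldha lay between 0.42 and 1.85 with 1 library left out, and without BAY replicate 4 its limma unadjusted P was under 0.05. With each library centred on its median gene, Hk2, Pgk1 and Pkm turned to log2 fold changes of -0.14, -0.21 and -0.31. Per kb of exon, no neighbours in the order of bone levels differed by more than the sum of their SDs in either group.

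In bone, 8 of the 10 members (all but Gapdh and Pgk1) were highest in VEH replicate 1 and BAY replicates 1 and 2, the 3 libraries with the most muscle-fibre RNA. Acta1, the skeletal muscle actin, was at 703.8, 29.5, 5.67 and 1.46 CPM in VEH and at 2849, 3172, 107.4 and 3.22 CPM in BAY, the same order of libraries at the top as for Eno3. All 12 fast-fibre markers were higher in BAY by the group means of log2 values (median log2 fold change 3.42), and 1 of them had an unadjusted P under 0.05 by limma. The sum of the 12 ranged from 39.3 to 9066 CPM in VEH and from 100.3 to 42085 CPM in BAY, and none of the 12 was at 0 in every library. The 11 osteoblast and osteocyte markers went the other way, with 11 of 11 lower in BAY and a median of -1.17. Their sum ranged from 1525 to 30270 CPM in VEH and from 1728 to 22290 CPM in BAY, and was at 2009 and 1728 CPM in BAY replicates 1 and 2. The part of muscle tissue on the bone in the differences between groups was not tested.

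**Figure D5:**
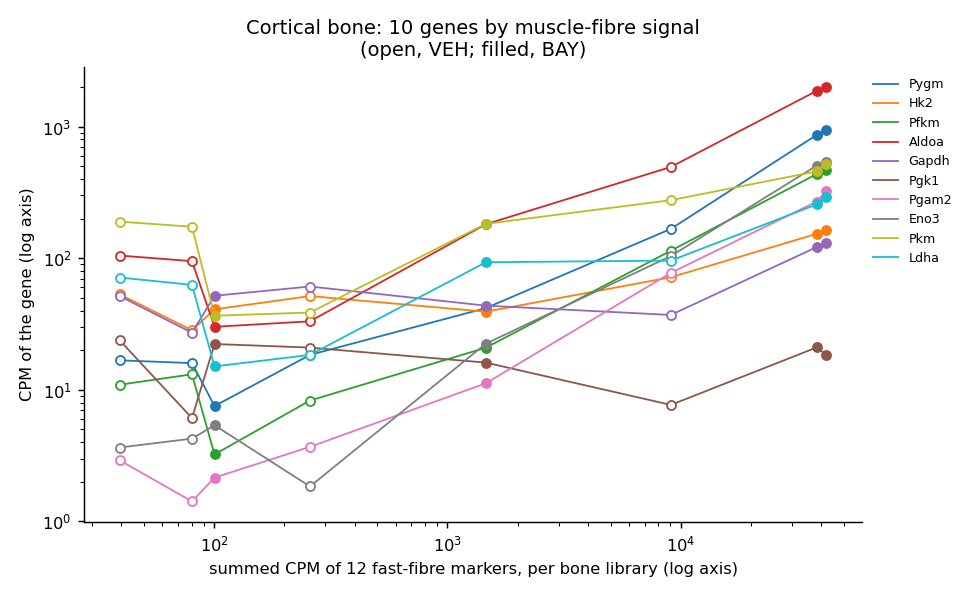
CPM of each of the 10 genes (log axis, a colour for each gene) against the summed CPM of 12 fast-fibre markers (log axis) in the 8 cortical bone libraries, with open points for VEH and filled points for BAY. Lines for Pygm, Pfkm, Aldoa, Pgam2 and Eno3 rise steeply over the 4 libraries with the most fibre signal. That of the Pgk1 row, drawn without its copies, stays between 6.1 and 23.8 CPM.

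Relative to the fast-fibre markers of the same library, Eno3 stood within its TA muscle range in all 3 fibre-rich bone libraries. In VEH replicate 1, Pygm lay below its muscle range and Pgam2, Pfkm and Aldoa lay above theirs. In the 2 BAY libraries these 4 genes lay within their ranges, except Pgam2 in BAY replicate 2, which lay just above. Hk2, Pkm and Ldha stood above their muscle range in all 3 libraries, Pkm only narrowly in BAY. Such ratios are taken within a library and do not depend on how each table was scaled, and no test was made between the tissues. For every 1000 CPM of fast-fibre markers, Pygm was counted at 22.6 and 22.3 CPM in bone BAY replicates 1 and 2, 18.4 CPM in bone VEH replicate 1, and between 20 and 25 CPM in the 8 muscle libraries. Eno3 was at 13.2, 12.7 and 11.5 CPM in these 3 bone libraries and between 9.07 and 13.9 CPM in muscle. Pgam2 was at 7.05, 7.66 and 8.54 CPM against between 6.22 and 7.61 CPM in muscle, and Pfkm at 11.4, 11.2 and 12.6 CPM against between 8.48 and 11.6 CPM. Aldoa was at 48.9, 47.3 and 54.5 CPM against between 39.2 and 52 CPM in muscle. Hk2 was at 4.01, 3.89 and 7.90 CPM in the same order, above the 2.09 to 2.65 CPM of the muscle libraries. Pkm was at 12, 12.4 and 30.5 CPM and Ldha at 6.71, 6.99 and 10.6 CPM in these bone libraries, against between 8.78 and 11.9 CPM and between 3.14 and 6.27 CPM in muscle. Gapdh was at 3.18, 3.10 and 4.09 CPM against between 3.66 and 5.40 CPM in muscle, below that range in both BAY libraries. Pgk1 was at 0.549, 0.435 and 0.846 CPM against between 0.204 and 0.617 CPM, above it in VEH replicate 1 alone.

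In the bone libraries with less fibre signal, between 1 and 9 of the 10 members were at or below the level of genes that bone does not use. In VEH replicate 2 and BAY replicate 4, 8 and 9 of the 10 members were at or below the CPM per kb of the olfactory receptor genes of the same library. In VEH replicate 4 it was 4 of 10, and in VEH replicate 3 and BAY replicate 3 it was 1 of 10 each. These counts did not fall in the order of fibre signal. The fast-fibre markers summed to 257.4 CPM in VEH replicate 2, against 80.3 and 39.3 CPM in VEH replicates 3 and 4. The olfactory receptor level was 9.06 CPM per kb in BAY replicate 4, 7.52 in VEH replicate 2 and 5.77 in VEH replicate 4. That level was 2.67 CPM per kb in BAY replicate 3 and 1.40 in VEH replicate 3. In VEH replicate 1 all members were at least 25.9 times that level, and in BAY replicates 1 and 2 at least 3.03 and 3.09 times. Values near that level do not show that the gene was expressed in those libraries.

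Shares within gene families followed the same libraries. The share of Eno3 among the enolases was 90.3%, 6.82%, 14.4% and 6.43% in bone VEH and 95.1%, 95.7%, 41.5% and 16.4% in bone BAY. Eno1, the enolase of most tissues, was at 39.1 ± 27.3 CPM in VEH and 29.3 ± 9.98 CPM in BAY, and Eno2, the neuronal form, at 11.1 ± 6.72 and 14.6 ± 3.22 CPM. The share of Pgam2 beside Pgam1 was 93.9%, 16.8%, 14.2% and 11.8% in VEH and 97.2%, 97.9%, 36.5% and 11.4% in BAY. The 3 fibre-rich libraries had nearly all of these families in the muscle form, and the other 5 had most of them in the other forms. Ldha kept between 67.8% and 90.6% of its family in all 8 bone libraries. By the exact permutation test, the two-sided unadjusted P values for BAY against VEH lay between 0.171 for Eno3 and 0.629 for Pfkm.

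Of the 52 other pathway genes, 48 were in the bone table, and 42 were higher in BAY and 6 lower, at a median of 0.74 on the log2 scale beside 0.84 over all genes. The median over all genes was -0.088 without VEH replicate 1, and the list was not recomputed without that library. The genes most like the members' mean log2 level over the 8 bone libraries, out of 16974, were Chchd10, Cox6a2 and Myom1 (Pearson r = 0.99 each). The members themselves correlated with that mean at 0.99 for Pygm and Pfkm down to 0.05 for Pgk1, and the 8 points share each library's depth and fibre signal.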

How the data were processed

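RNA was extracted with TRIzol from bone and with a Maxwell kit from muscle, and stranded polyadenylated libraries were sequenced. The authors trimmed and aligned the reads with STAR (version 2.7.8a in the submitters' processing notes) to mm39, and quantified Ensembl release 104 genes with the Partek E/M algorithm. They deposited log2 values of CPM plus an offset, which the lowest value put at 0.0004 in muscle and 0.0001 in bone. The tissues were normalized separately and not tested against each other. Their methods name limma-voom, and their results count genes at P under 0.05 and a fold of 2 or more.

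BAY was compared with VEH in each table with limma (version 3.58.1, R version 4.3.3), lmFit and eBayes with a trend on the deposited log2 values, two-sided, no covariate, Benjamini-Hochberg over all genes; the steps were tested on simulated data. P values measure the spread between 4 mice per group. Steps between low values gave what 1 counted read was worth, and 81.3% to 88.4% of values up to 50 reads were whole to within 0.02. Exon lengths, promoters and copies came from GRCm39 with GENCODE M39 (Python version 3.11.15, BLAST version 2.17.0), and copies were annotated pseudogenes matching at least 500 bases at 98% identity. Paralog shares used an exact permutation test.

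The members, the pathway list of 52 genes and the 7 marker lists were chosen with earlier results of these data known. Named beside the members were paralogs, pathway genes with an unadjusted P under 0.05 and a mean of at least 1 CPM, and per tissue the 3 most alike genes. Erythroid, neutrophil, slow-fibre, osteoclast and adipocyte markers in bone moved by median log2 fold changes of -0.92, -1.05, -0.16, -0.79 and 0.09. In muscle, slow-fibre markers moved by 0.07, erythroid by -0.19, osteoblast by -0.37, osteoclast by -0.64 and adipocyte by -2.00, and no neutrophil marker was in the table. The adipocyte markers other than Car3 summed to 322.3 CPM in muscle VEH replicate 3. In the other muscle libraries of both groups that sum lay between 38.5 and 56.1 CPM. Adipoq was at 0 CPM in muscle VEH replicate 2 and BAY replicate 2, where the offset sets its log2 value. Some results that these rules take are not reported here. Protein sequences were not used here.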

Additional observations from a re-analysis of the deposited data

Results flagged for a closer look

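Within a group of 4 libraries, a library was noted when its gap to the nearest other exceeded Dixon's 95% critical share of the group's range, which chance gives in about 1 of 20 groups. Of 40 groups of member levels 7 had such a library, and of 26 groups of paralog shares 6 did.

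In bone VEH, replicate 1 stood above the other 3 for Aldoa (494.1 CPM against at most 104.8), Eno3 (103.9 against at most 4.25), Pfkm (114.1 against at most 13.1), Pgam2 (77.4 against at most 3.68) and Pygm (167.1 against at most 18.4). The same library stood above the others in the share of Pgam2 in its family (93.9% against at most 16.8%) and of Eno3 (90.3% against at most 14.4%). This library had the highest fibre-marker sum of its group, 9066 CPM, and the lowest olfactory receptor signal of all bone libraries.

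In muscle VEH, replicate 3 was the library with the highest sums over the adipocyte, osteoblast and osteoclast marker lists. It had the lowest shares of Pygm (99.7% against at least 99.96%), Pgam2 (99.5% against at least 99.8%) and Ldha (87.4% against at least 95.3%) in their families. Replicate 2 of the same group was the highest for Pgam2 (1042 CPM against at most 921.9). In muscle BAY, replicate 4 was the highest for Hk2 (420.4 CPM against at most 354.2), and replicate 2 had the lowest share of Aldoa in its family (99.997%), where the other 3 were at 100%. What set these libraries apart was not tested.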

How the results depend on the processing

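Each log2 fold change was recomputed under 16 alternatives in muscle and 17 in bone. In muscle Pgk1 stayed lower in BAY at an unadjusted P under 0.05 in 16 of 16, between -0.61 and -0.29, and the count of members at that P was 1 in 15 of them and 2 (Pgk1 and Pkm) with voom on recovered reads, while 0 members passed the fold of 2 in any. The fold change of Pygm turned to -0.0086 without BAY replicate 4 (from -0.0086 to 0.14 with 1 library left out) and to -0.0056 with CPM computed without mitochondrial genes, where Eno3 turned to -0.011.

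In bone the count of members at an unadjusted P under 0.05, which equalled the count also past the fold of 2, was 1 in the reported fit. It was 5 with log2(CPM + 1), 2 with the replicate block, 6 with VEH replicate 1 and BAY replicate 4 both left out, and 0 with genes of at least 1 CPM, median centring, eBayes without a trend, voom or CPM without mitochondrial genes. Leaving out 1 library gave between 0 and 6: 6 without BAY replicate 4, 3 without VEH replicate 1, 1 without BAY replicate 3, and 0 without each of the other 5. Median centring turned Hk2 to -0.14, Pgk1 to -0.21 and Pkm to -0.31, and Pkm lay between -0.064 (without VEH replicate 2) and 1.36 (without BAY replicate 4) with 1 library left out. The count of paralog shares with an exact P under 0.05 was 0 per kb and 0 in CPM, and with each library left out the difference of means moved by less than the SD pooled over both groups. That SD includes the library left out. The muscle difference for Ldha, BAY minus VEH, went from 1.04 to -1.07 percentage points without VEH replicate 3, and those of Pygm, Hk2, Pfkm and Eno3 also changed sign with a library left out. Over all genes, the count past P and fold lay between 52 with log2(CPM + 1) and 700 with voom in muscle (510 as reported), and between 82 with genes of at least 1 CPM and 1433 with voom in bone (249 as reported). The cause of these shifts was not tested, except that leaving out a library also leaves fewer values. Summing copies and leaving out mitochondrial genes were chosen after seeing the data.

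The replicate numbers belong to different mice. Deviations of same-numbered libraries correlated between -0.09 and 0.01 in muscle and between -0.11 and 0.19 in bone, so the numbers do not pair the libraries. As a replicate block they moved the bone count to 2 (Eno3 and Pgam2) and left the muscle counts at 1 and 0. At the depth of the bone libraries, values of the muscle forms rested on as few as 2 reads.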
